A study of Mus musculus with 44 samples.

Results

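The RNAs described here are 305 array probes whose mean signal differed in opposite directions in the AUF1 pulldown and in the input RNA of C2C12 cells between day 0 and day 6 of differentiation. They were chosen from 9276 probes detected (detection p-value under 0.05) on each of the 10 input arrays of days 0 and 6, of 25697 probes on the array, so 3.29% of the input-detected probes qualified. The rule took the mean log2 signal of each day and kept probes whose day 6 minus day 0 difference was at least 0.4 in size, a 1.32-fold difference, in the AUF1 pulldown and in input, with opposite signs. In 189 of them the AUF1 signal was higher and the input signal lower on day 6 (2.04% of the input-detected probes; called AUF1-higher probes below). In the other 116 the AUF1 signal was lower and the input signal higher (1.25%; called AUF1-lower probes). For comparison, 484 input-detected probes were at least 0.4 higher in both and 557 at least 0.4 lower in both. The AUF1 and input values of days 0 and 6 chose these probes and are given as a description with no test.

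AUF1, encoded by Hnrnpd, is an RNA-binding protein that recognises AU-rich stretches of messenger RNA and can alter the decay and translation of its targets. An RNA immunoprecipitation recovers the RNA that stays with an antibody on beads, and the same beads with non-immune IgG recover the RNA that is carried along without AUF1. The level of a messenger RNA in a pulldown depends on its abundance in the lysate as well as on its recovery, so a pulldown signal is usually read beside the input RNA and the IgG pulldown. C2C12 is a mouse myoblast line that leaves the cell cycle and fuses into myotubes when growth serum is replaced by a low amount of horse serum.

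Illumina bead arrays were run on 3 kinds of RNA from C2C12 cells. AUF1 pulldown RNA was measured in growing myoblasts (day 0, 4 arrays) and on days 2 (3 arrays), 4 (3 arrays) and 6 (4 arrays) in differentiation medium. Control IgG pulldown RNA was measured on the same days with 4, 3, 4 and 4 arrays. Input RNA, which did not go through a pulldown, was measured on days 0, 3 and 6 with 5 arrays each. The titles of the input samples read Input DNA Control, and they are taken here as RNA. All groups are 1 cell line, and nothing in the labels says whether replicates came from separate cultures, so p-values measure only the spread between these arrays. The table names probes by Illumina identifier only, and 0 of these identifiers occurred in the gene table used here. Probes are therefore given by identifier, no gene, pathway or cell marker was looked up, and no sequence is shown.

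By mean signal per kind and day, AUF1 arrays (107 to 213) were dimmer than input arrays (245 to 273). IgG arrays (228 to 278) spanned the input values. Both pulldowns varied more between arrays than input did. The share of probes detected was 44.7% to 48.7% on input arrays, 25.6% to 46.8% on IgG arrays and 24.4% to 45.5% on AUF1 arrays. Under 30% were detected on 4 AUF1 arrays (day 0 experiment 2, day 2 experiments 1 and 2, day 4 experiment 3) and on 1 IgG array (day 4 experiment 2). Experiment here and below is the number after the letter E in the column names, a reading that the labels do not state. By group, AUF1 arrays detected 36.7%, 29.7%, 32.3% and 39.9% of probes on days 0, 2, 4 and 6, against 42%, 41.2%, 40.1% and 43% on IgG arrays. The last number of the column names, read here as an array number, is 1 to 32 for pulldown arrays and 33 to 47 for input arrays. If these numbers follow an array batch, it and the kind of RNA cannot be told apart. All levels are log2 signals after quantile normalization within each kind of RNA, with no background subtracted. They describe a probe relative to the other probes of the same array, not an amount of RNA, and differences of dim probes are understated.

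Most of the opposite differences were small. Among the AUF1-higher probes the AUF1 difference had a median of 0.58 (range 0.40 to 1.54) and the input difference a median of -0.69 (range -3.13 to -0.40). Among the AUF1-lower probes the AUF1 difference had a median of -0.62 (range -1.58 to -0.40) and the input difference a median of 0.59 (range 0.40 to 3.86). Over all 9276 input-detected probes the medians were 0.01 with AUF1 and -0.04 in input. The smaller of a probe's AUF1 and input differences was under 0.5 in size in 100 AUF1-higher and 58 AUF1-lower probes. Both differences reached 2-fold (1 on the log2 scale) in 4 AUF1-higher and 2 AUF1-lower probes. At the threshold, the AUF1-higher probes just inside had AUF1 and input differences of 0.44 and -0.40 for one and 0.40 and -0.45 for the other. Those just outside, whose smaller difference fell short of 0.4 only in a further decimal, had 0.78 and -0.40, and 0.55 and -0.40. The AUF1-lower probes just inside had -0.40 and 0.59, and -0.52 and 0.40, and those just outside had -0.40 and 0.43, and -0.52 and 0.40.

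**Figure D1:**
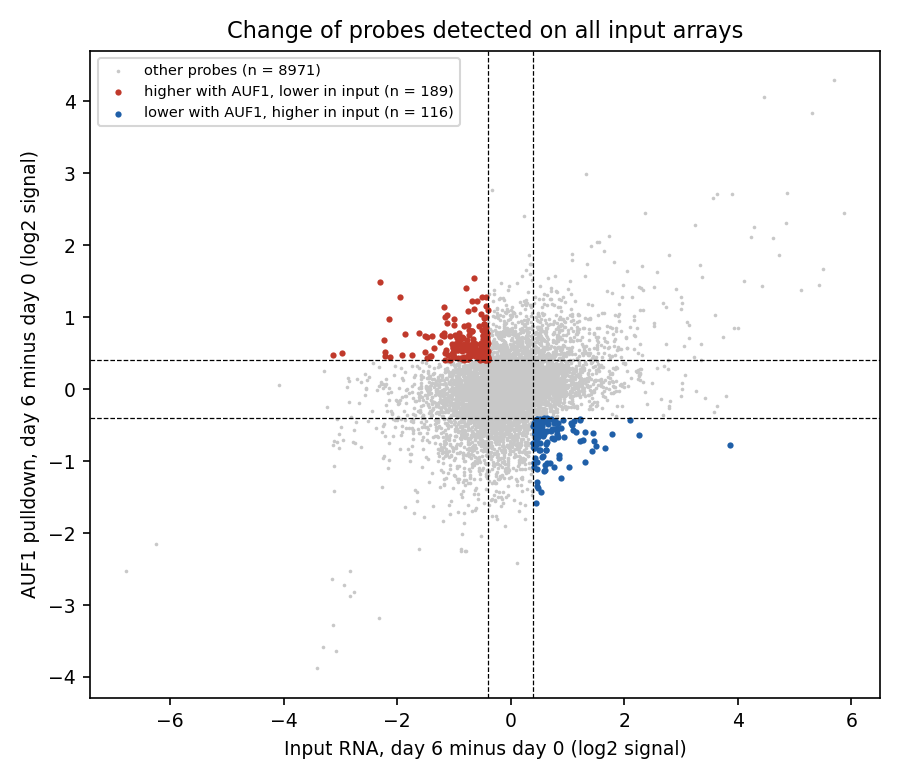
Day 6 minus day 0 difference in the AUF1 pulldown (vertical axis, log2 signal) against that in input RNA (horizontal axis, log2 signal), 1 point per probe detected on all input arrays of days 0 and 6. Dashed lines mark 0.4 in size. The 189 AUF1-higher probes (red) fill the upper left corner and the 116 AUF1-lower probes (blue) the lower right corner, most of them close to the lines.

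The spread between arrays was often as large as these differences. All 4 AUF1 arrays of day 6 lay above all 4 of day 0 in 90 of the 189 AUF1-higher probes (8.50% of 11601 probes tested with AUF1 were so placed), and all lay below in 46 of the 116 AUF1-lower probes (6.46%). Compared within experiments 1 to 4, AUF1 was higher on day 6 in all 4 for 136 AUF1-higher probes (16.7% of all tested) and lower in all 4 for 76 AUF1-lower probes (15.3%). In input, the 5 arrays of day 6 lay below the 5 of day 0 in 119 AUF1-higher probes (15.5%) and above in 53 AUF1-lower probes (13.6%). These counts come from the arrays that chose the probes and only describe their spread. The members were not faint in the pulldowns: 173 AUF1-higher and 105 AUF1-lower probes were detected on all 8 AUF1 arrays of days 0 and 6, and 161 and 97 on all 15 IgG arrays.

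The clearest AUF1-higher probe was ILMN_2980661, taken by the size of the smaller of its AUF1 and input differences. With AUF1 it measured 8.36, 8.28, 8.44 and 7.83 on day 0 and 10.19, 10.15, 9.10 and 9.44 on day 6 (experiments 1 to 4). In input it measured 10.38, 10.34, 10.72, 10.40 and 11.81 on day 0 and 8.39, 8.50, 8.19, 8.76 and 8.27 on day 6. The days did not overlap in either, and the differences were 1.49 with AUF1 and -2.31 in input. With IgG, whose arrays the rule did not use, it measured 9.03, 9.0, 9.08 and 9.19 on day 0 and 10.70, 10.29, 10.37 and 10.21 on day 6. The IgG difference of 1.32 (SE 0.26) had the direction of AUF1, with no overlap between days, and passed the test (limma adjusted p = 0.016).

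ILMN_2756486 came next. With AUF1 it measured 9.93, 10.27, 10.19 and 9.05 on day 0 and 11.15, 11.80, 11.23 and 10.40 on day 6. Every day 6 array was above every day 0 array, by a mean of 1.28. In input the day 0 arrays lay between 11.32 and 12.13 and the day 6 arrays between 9.59 and 9.81, a difference of -1.96. The IgG arrays measured 10.35, 10.96, 10.87 and 9.92 on day 0 and 11.84, 11.51, 12.02 and 11.21 on day 6, again without overlap. The IgG difference was 1.12 (SE 0.25, limma adjusted p = 0.034). For these 2 probes, both pulldowns were higher on day 6 while the input was lower.

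The first AUF1-lower probe, ILMN_1221750, had arrays that differed widely on day 0. With AUF1 it measured 7.61, 6.86, 7.76 and 8.77 on day 0 and 6.67, 6.76, 6.48 and 6.75 on day 6, a difference of -1.08. With IgG it measured 8.46, 7.60, 8.62 and 9.79 on day 0 and 7.23, 6.75, 7.33 and 7.49 on day 6. Experiment 4 was the highest and experiment 2 the lowest day 0 array in both pulldowns, and the highest day 0 input array (8.20, against 6.43 to 7.05 on the others) was also experiment 4. The IgG difference was -1.42 (SE 0.34, limma adjusted p = 0.045), and the days did not overlap in either pulldown. In input the day 6 arrays lay between 7.81 and 8.44 and overlapped day 0 through that array, with a mean difference of 1.03. Its AUF1 means on days 2 and 4, 6.6 and 6.45, were close to the 6.67 of day 6, but the probe was detected on only 2 of 3 arrays on each of those days.

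In ILMN_2757569, the next AUF1-lower probe, the IgG pulldown did not move with AUF1 beyond its spread. Over the class, the IgG test called 2 of 116 probes lower (0.232% of all tested). The IgG difference was below 0 in 90 of the 116 (52.0% of all tested) and at most -0.4 in 39 (9.68%). With AUF1 ILMN_2757569 measured 10.87, 10.67, 10.76 and 10.70 on day 0 and 9.69, 9.50, 9.53 and 10.22 on day 6, with no overlap and a difference of -1.02. In input it lay between 11.40 and 12.02 on day 0 and between 12.68 and 13.18 on day 6, a difference of 1.32. With IgG it measured 10.92, 11.06, 11.61 and 11.62 on day 0 and 11.01, 11.75, 10.58 and 10.94 on day 6. These days overlapped, and the IgG difference of -0.23 (SE 0.34) did not pass (limma adjusted p = 0.97). Unlike ILMN_1221750, its AUF1 mean was highest on day 4 (11.06 ± 0.40, SD, n = 3) and lowest on day 6 (9.73 ± 0.33, SD, n = 4).

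**Figure D2:**
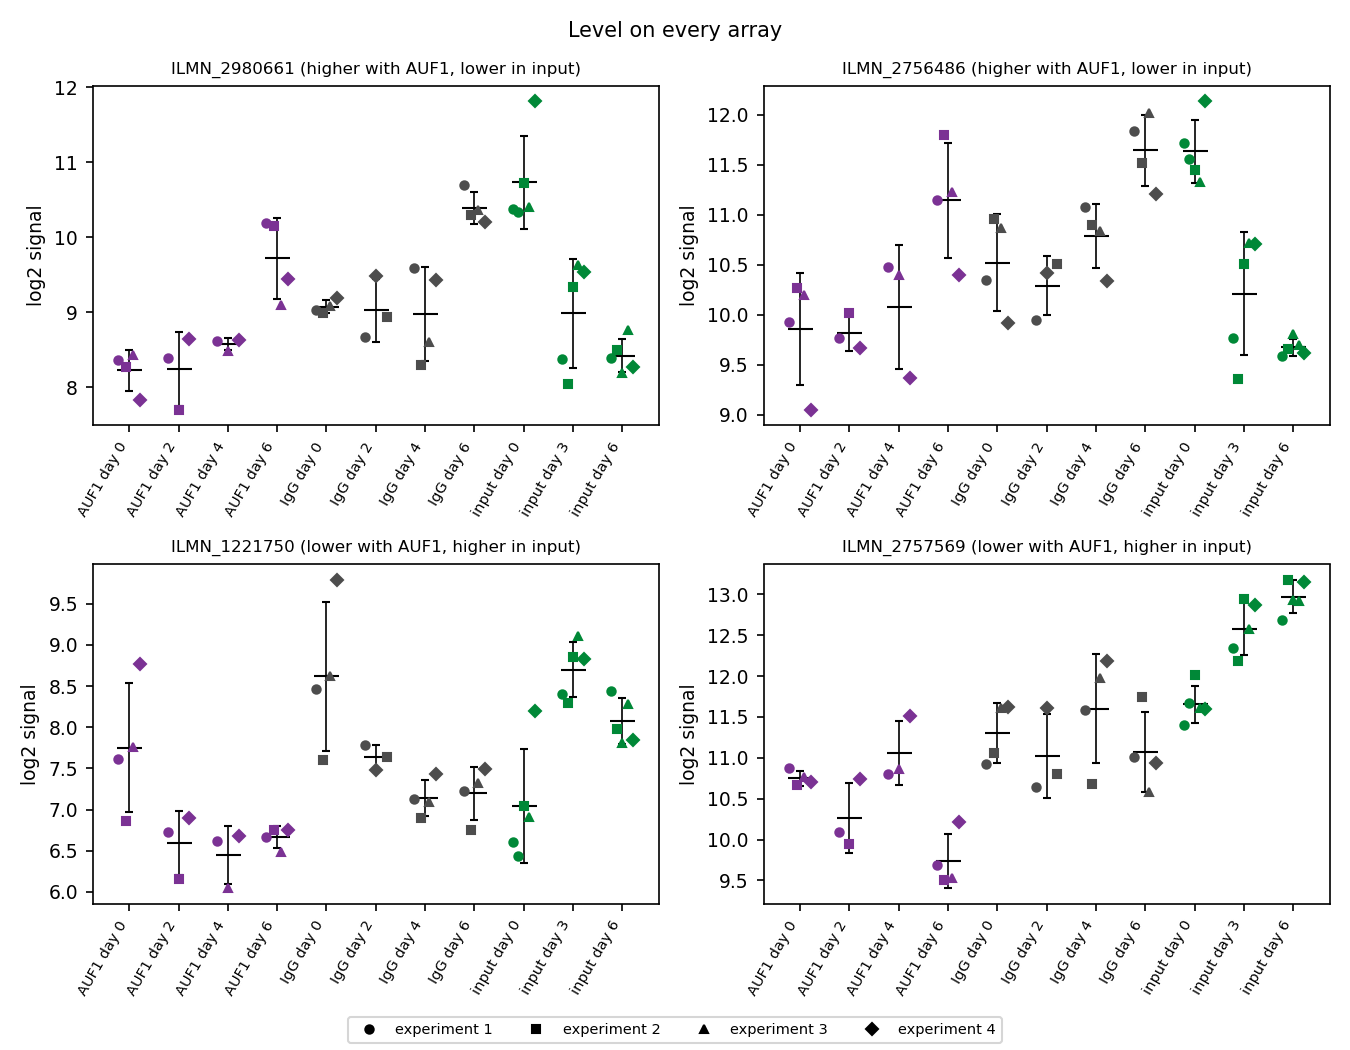
Level (log2 signal, vertical axes) of 4 probes on every array, grouped by kind of RNA and day (horizontal axes). Each point is 1 array, its shape gives the experiment number, and horizontal marks and bars are the mean and SD. In ILMN_2980661 and ILMN_2756486 the day 6 arrays of both pulldowns lie above those of day 0 and the input arrays below. In ILMN_1221750 both pulldowns lie lower on day 6, and in ILMN_2757569 the IgG arrays of days 0 and 6 overlap.

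The 8 probes with the largest smaller difference in each class show the same mixture. The 8 AUF1-higher ones had AUF1 differences of 0.91 to 1.49, input differences of -2.31 to -0.99 and IgG differences of 0.19 to 1.32. Of these, 3 passed the IgG test (1.67% of all tested were called higher). The 8 AUF1-lower ones had AUF1 differences of -1.24 to -0.79, input differences of 0.85 to 1.67 and IgG differences of -1.42 to -0.18. Of these, 1 passed (0.232% were called lower). In all 8 of each class the sign of the IgG difference was that of AUF1 (48.0% of all tested were above 0 and 52.0% below). The 8 were picked by AUF1 differences, and the IgG arrays are not independent of the AUF1 arrays, as given next.

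Whether the IgG pulldown of the same probes followed AUF1 or input was asked next, since the rule did not use IgG arrays. The pulldowns are not independent of each other, however. AUF1 and IgG arrays of the same experiment number deviated together, with correlations of 0.24 to 0.80 over 13812 probes on day 0 and 0.17 to 0.85 on day 6 (4 pairs each). The IgG values are thus not independent of the choice, and the shares over all probes do not show what the members would have without a change. In most members the IgG difference had the sign of AUF1, not of input. It was above 0 in 155 of the 189 AUF1-higher probes (48.0% of the 12940 probes tested with IgG were above 0), with a median of 0.25 (range -0.57 to 1.36). It was below 0 in 90 of the 116 AUF1-lower probes (52.0% of all), with a median of -0.20 (range -1.42 to 0.50). Under median scaling, which moved the median of the input-detected probes to 0.05, these counts were 173 of 189 and 67 of 116, with medians of 0.42 and -0.07. Together 245 of 305 had the AUF1 sign. The median over the 9276 input-detected probes was -0.02. Among probes that differed the same way by at least 0.4 with AUF1 and in input, the IgG difference had that sign in 462 of 484 and 539 of 557.

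The IgG difference reached 0.4 in the AUF1 direction in 56 AUF1-higher probes (9.61% of all tested) and 39 AUF1-lower probes (9.68%). It reached 0.4 in the input direction in 5 members. These were 3 AUF1-higher probes (9.68% of all tested were at most -0.4) and 2 AUF1-lower probes (9.61% were at least 0.4). All 4 IgG arrays of day 6 lay above those of day 0 in 20 AUF1-higher probes (5.40%) and below in 6 AUF1-lower probes (1.75%). Within experiments, IgG was higher on day 6 in 4 of 4 for 52 AUF1-higher probes (12.6%) and lower in 4 of 4 for 22 AUF1-lower probes (9.68%). By limma, with Benjamini-Hochberg adjustment over all 12940 probes, 6 AUF1-higher probes were higher with IgG on day 6 (1.67% of all tested) and 2 AUF1-lower probes were lower (0.232%). At an unadjusted p under 0.05, these counts were 33 (6.85%) and 6 (3.49%), and no member passed in the direction of input. The count of 8 rests on single arrays: it was 2 without IgG day 6 experiment 1 or IgG day 0 experiment 3, between 3 and 5 without any of the other 6, and 0 under median scaling.

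The member with the largest IgG difference that passed was ILMN_3115472. With IgG it measured 9.0, 9.08, 9.19 and 8.85 on day 0 and 10.26, 10.00, 11.11 and 10.18 on day 6, with no overlap and a difference of 1.36 (SE 0.21, limma adjusted p = 0.0022). Its IgG means of days 2 and 4, 9.53 and 9.85, lay between those of days 0 and 6. With AUF1 its arrays measured 8.88, 8.64, 8.95 and 8.18 on day 0 and 9.10, 9.21, 10.11 and 8.99 on day 6, a difference of 0.69 beside an SD of 0.51 on day 6. The AUF1 days did not overlap, by a narrow margin (8.95 against 8.99). Its input arrays spanned 9.61 to 12.07 on day 0 and 8.81 to 10.54 on day 6 and overlapped, so its input difference of -0.46 is within that spread. It rests on the day 0 array of experiment 4 (12.07, against at most 10.28 on the others): without that array it was -0.01.

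ILMN_2977558 passed in the other direction. With IgG it measured 11.30, 11.74, 11.64 and 11.58 on day 0 and 10.71, 10.88, 11.02 and 11.05 on day 6. These did not overlap, and their difference of -0.65 (SE 0.15) passed limma with an adjusted p of 0.045. With AUF1 it measured 10.48, 10.92, 10.48 and 10.51 on day 0 and 9.25, 9.99, 10.39 and 10.23 on day 6, a difference of -0.64 and also with no overlap. Its input arrays lay between 7.54 and 9.43 on day 0 and between 10.28 and 11.06 on day 6, a difference of 2.26. Both pulldowns of this probe were thus lower on day 6 on every array while every input array was higher.

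**Figure D3:**
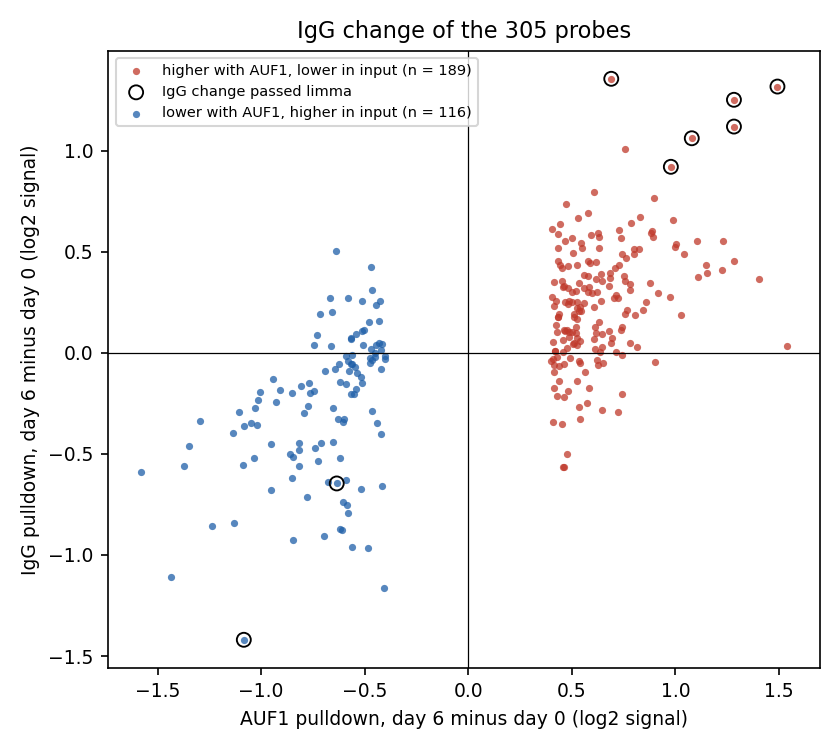
Day 6 minus day 0 difference with IgG (vertical axis, log2 signal) against that with AUF1 (horizontal axis, log2 signal) for the 305 probes. Circles mark the 8 whose IgG difference passed limma. Of the red AUF1-higher points 155 of 189 lie above 0 on the IgG axis, and of the blue AUF1-lower points 90 of 116 lie below it.

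In the AUF1 pulldown all members stood apart from day 0 on day 6 by the rule, and most did not on day 4. The median AUF1 level of the AUF1-higher probes was 7.72, 7.89, 7.74 and 8.35 on days 0, 2, 4 and 6. Day 6 was the highest of the 4 days in 184 of 189, against 37.6% of all input-detected probes and 78.5% of those higher in both. On day 4, 12 AUF1-higher probes were at least 0.4 above day 0 (5.41% of all input-detected probes) and 21 at least 0.4 below it (8.62%). The AUF1-lower probes had median AUF1 levels of 8.34, 8.32, 8.39 and 7.62. Day 6 was the lowest in 108 of 116, against 26.1% of all input-detected probes and 79.5% of those lower in both. On day 4, 10 AUF1-lower probes were at least 0.4 below day 0 (8.62% of all input-detected probes) and 13 at least 0.4 above (5.41%). Since day 6 chose the probes, its place at the extreme is a description.

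In input most members already differed from day 0 by day 3, measured against the day 0 arrays that also chose them. The median input level of the AUF1-higher probes was 8.84, 8.25 and 8.16 on days 0, 3 and 6, and 136 of 189 were at least 0.4 below day 0 on day 3. That of the AUF1-lower probes was 8.69, 9.38 and 9.50, and 76 of 116 were at least 0.4 above day 0 on day 3. A day 3 difference of this size in the direction of day 6 was found in 40.9% of all input-detected probes, and in 90.3% and 87.8% of those higher and lower in both. The day 3 mean lay between those of days 0 and 6 in 143 and 84, beyond day 6 in 44 and 31, and on the other side of day 0 in 2 and 1. No pulldown was made on day 3 and no input on days 2 or 4, so the order of the differences can be read only to that resolution. The IgG medians, for which the rule asked no difference, were 9.07, 9.23, 9.01 and 9.29 for the AUF1-higher and 8.83, 8.70, 8.79 and 8.59 for the AUF1-lower probes on days 0, 2, 4 and 6.

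**Figure D4:**
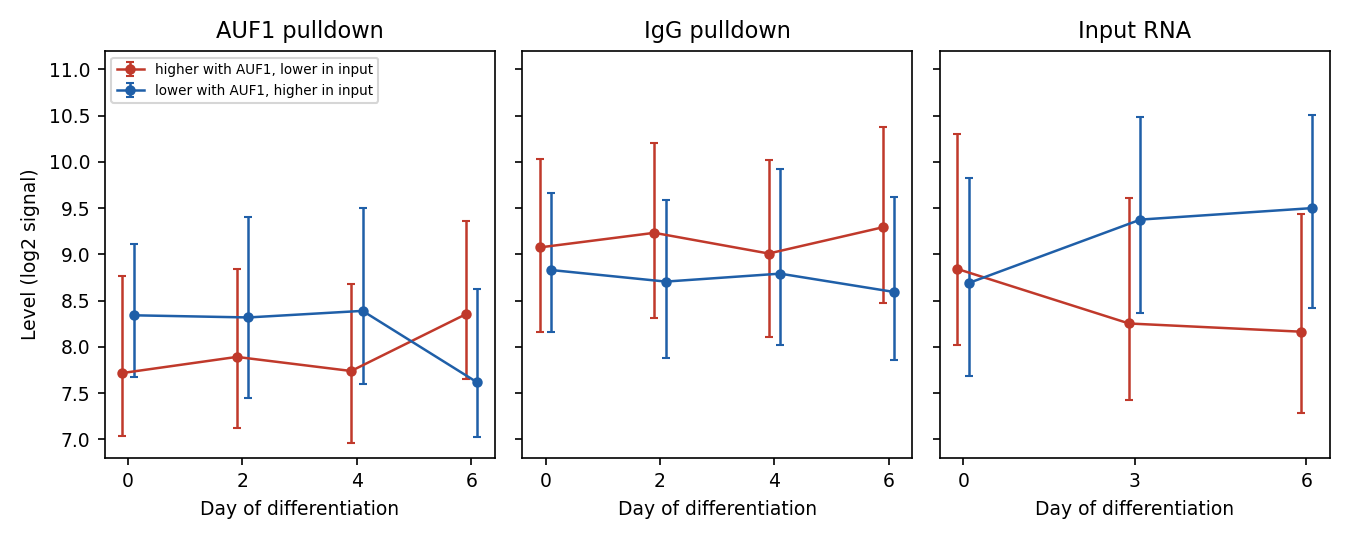
Median level (log2 signal, vertical axis) of the 189 AUF1-higher (red) and 116 AUF1-lower (blue) probes by day (horizontal axis) in each kind of RNA, with bars from the lower to the upper quartile over probes. The AUF1 medians of the classes cross between days 4 and 6, while the input medians have crossed by day 3.

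Days 2 and 4 of the AUF1 pulldown took no part in the choice and could be tested against each other. Of the 305 members 0 differed between them by limma at an adjusted p under 0.05, where 2 of 11601 probes did (0.0172%). At an unadjusted p under 0.05, 11 members differed: 1 AUF1-higher and 3 AUF1-lower probes were higher on day 4 (2.25% of all tested), and 6 and 1 were lower (1.22%). The median day 4 minus day 2 difference was -0.15 in AUF1-higher and 0.07 in AUF1-lower probes, against 0.02 over all probes tested. Under median scaling, which moved the median of all probes to 0.16, these were 0.25 and 0.48.

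The AUF1 and IgG pulldowns of the same day were then compared directly, after normalizing the 14 AUF1 and 15 IgG arrays together. The AUF1-higher probes started below IgG and the AUF1-lower probes above it, and by day 6 both medians were near 0. In AUF1-higher probes the median AUF1 minus IgG difference was -0.31, -0.37, -0.29 and 0.12 on days 0, 2, 4 and 6, and 156, 153, 145 and 49 of 189 lay below IgG (49.9%, 55.2%, 54.1% and 49% of 13812 probes tested). In AUF1-lower probes it was 0.50, 0.57, 0.51 and -0.03, and 102, 103, 97 and 48 of 116 lay above IgG (50.1%, 44.8%, 45.9% and 51%). Over all input-detected probes it was -0.01, -0.07, -0.03 and 0.01. Probes higher in both AUF1 and input had medians of -0.20, -0.29, -0.26 and 0.00 on these days, and probes lower in both had 0.40, 0.39, 0.41 and 0.03, so sets that did not move against input took a like course. The difference was nearer 0 on day 6 than on day 0 in 134 AUF1-higher probes (70.9%) and 102 AUF1-lower probes (87.9%), against 72.3% of all input-detected probes, which leaves the AUF1-higher share at the background. Days 0 and 6 use the AUF1 arrays that chose the members, so only days 2 and 4 were tested.

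These counts depend on the scaling. Under median scaling the median AUF1 minus IgG difference of all input-detected probes moved to -0.31, -0.86, -0.78 and -0.31 on days 0, 2, 4 and 6. Then 61, 1, 1 and 0 of the 116 AUF1-lower probes lay above IgG, with medians of 0.03, -0.80, -0.65 and -0.44. Of the 189 AUF1-higher probes 187, 189, 189 and 180 lay below IgG, with medians of -0.80, -1.78, -1.43 and -0.35, so on day 6 most of them changed sides. Over all probes tested, a wider set than those detected in input, the median was -0.48 on day 2 and -0.53 on day 4, and 100 and 80 of the 116 AUF1-lower probes lay below it. With background correction and quantile normalization together (the neqc method) both classes kept their direction, at -0.44 and 0.71 on day 2. AUF1 arrays of these days were dimmer than IgG arrays (mean signal 107 and 127 against 228 and 274 on days 2 and 4), and the part of this in the result was not tested.

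**Figure D5:**
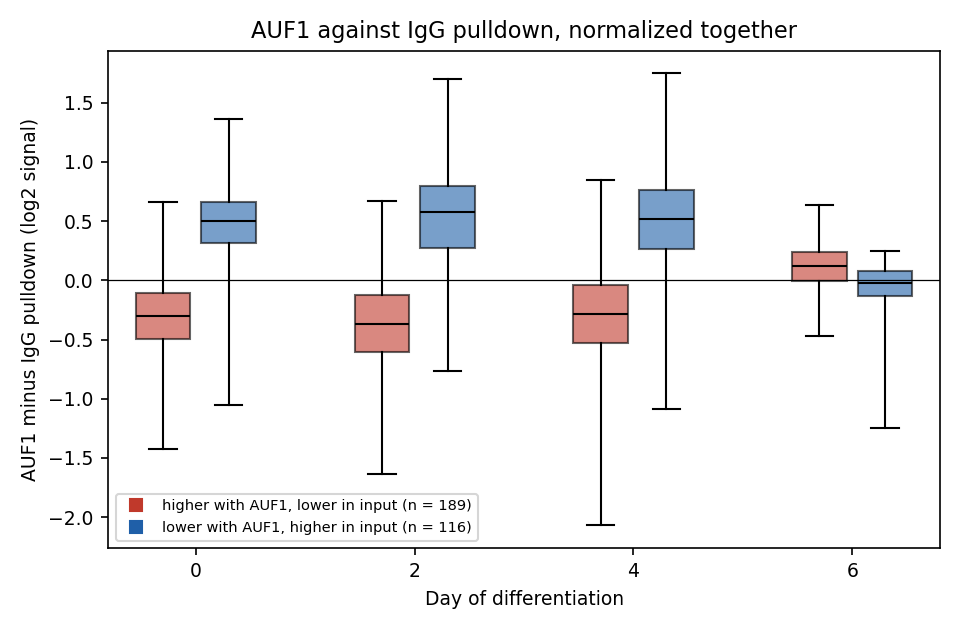
AUF1 minus IgG difference (log2 signal, quantile-normalized together, vertical axis) by day (horizontal axis) for the AUF1-higher (red) and AUF1-lower (blue) probes. Boxes run from the lower to the upper quartile with the median as a line, and whiskers reach the lowest and highest probe. The boxes lie on opposite sides of 0 on days 0, 2 and 4 and around 0 on day 6; under median scaling the AUF1-lower medians lie below 0 on days 2, 4 and 6 and the AUF1-higher median also on day 6.

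On day 2, all 3 AUF1 arrays lay below all 3 IgG arrays in 52 AUF1-higher probes (16.5% of 13812 probes tested) and above them in 44 AUF1-lower probes (11.4%). By limma 2 AUF1-higher probes were lower with AUF1 (1.59% of all tested) and 5 AUF1-lower probes were higher (0.601%). At an unadjusted p under 0.05 these counts were 45 (12.3%) and 46 (8.67%). Arrays of the same experiment number deviated together on this day. With that number as a replicate block, 79 AUF1-higher probes were lower and 4 higher, and 65 AUF1-lower probes were higher and 1 lower, where 15.3% of all probes were lower and 12.1% higher. Over all probes the calls were 83 higher and 219 lower, and under median scaling 0 higher and 1435 lower. The 7 members called became 0 without IgG experiment 1 or 2, 1 without AUF1 experiment 2, 3 without AUF1 experiment 1, 47 without IgG experiment 4, and 0 without the arrays under 30% detected.

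ILMN_1219656 showed the largest AUF1 excess on day 2 among the members called. On the common scale its AUF1 arrays measured 10.09, 9.83 and 10.02 (experiments 1, 2 and 4) and its IgG arrays 8.52, 8.09 and 9.12. The arrays did not overlap, and the difference was 1.40 (SE 0.25, limma adjusted p = 0.011). The SE and p-values of the named day 2 probes come from the fit without the replicate block, so they ignore the pairing of these arrays. ILMN_2914295 measured 11.37, 11.26 and 11.52 with AUF1 and 9.85, 9.99 and 10.75 with IgG, which differ by 1.19 (SE 0.25, limma adjusted p = 0.016). Both are AUF1-lower probes whose IgG level hardly differed between days 0 and 6 (0.04 and 0.07), and under median scaling they lay at -0.32 and -0.49, beside -0.48 as the median of all probes tested. Their input differences of 0.40 and 0.44 were near the threshold, and their input arrays of days 0 and 6 overlapped. Without 1 day 0 input array these differences fell to as low as 0.33 and 0.37.

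The 2 AUF1-higher probes called on day 2 lay below IgG. ILMN_2867696 measured 9.16, 8.84 and 8.91 with AUF1 and 10.23, 10.39 and 9.86 with IgG on day 2, a difference of -1.19 (SE 0.29, limma adjusted p = 0.036). ILMN_2768755 measured 8.28, 7.84 and 7.88 with AUF1 and 9.48, 9.26 and 8.67 with IgG, which gives -1.14 (SE 0.30, limma adjusted p = 0.044). In both, every AUF1 array lay below every IgG array.

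On day 4, all AUF1 arrays lay below all IgG arrays in 28 AUF1-higher probes (7.13% of all) and above them in 39 AUF1-lower probes (6.91%). By limma 3 AUF1-higher probes were lower with AUF1 (0.536%) and 5 AUF1-lower probes were higher (0.514%), with 44 (9.14%) and 47 (9.46%) at an unadjusted p under 0.05. Over all probes 71 were higher and 74 lower, and under median scaling 7 and 1568, and with neqc 38 and 57. The 8 members called became 0 without AUF1 experiment 3, 1 without IgG experiment 1, 3 without AUF1 experiment 4 or IgG experiment 3, and 0 without the arrays under 30% detected.

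ILMN_2939012 had the smallest adjusted p of these. Its AUF1 arrays measured 8.67, 8.27 and 8.37 (experiments 1, 3 and 4) and its IgG arrays 9.39, 9.89, 9.69 and 10.05 (experiments 1 to 4). The difference was -1.31 (SE 0.21, limma adjusted p = 0.0061), with no overlap. By day 6 its AUF1 arrays measured 10.36, 10.31, 10.60 and 10.39 and its IgG arrays 10.43, 9.51, 10.73 and 10.51, and the pulldowns overlapped. ILMN_2440997 measured 9.91, 9.50 and 8.84 with AUF1 and 11.77, 11.83, 11.69 and 10.64 with IgG on day 4, a difference of -2.07 (SE 0.47, limma adjusted p = 0.037). It is also 1 of the 5 members whose IgG difference between days 6 and 0 went with input by at least 0.4 (-0.57), a difference that did not pass (limma adjusted p = 0.84). The input difference of ILMN_2440997, -0.43, was -0.38 without 1 day 0 input array, and its input arrays of days 0 and 6 overlapped.

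Among AUF1-lower probes on day 4, ILMN_2717460 measured 7.69, 8.42 and 8.20 with AUF1 and 6.75, 6.16, 7.58 and 7.27 with IgG. The arrays did not overlap and the difference was 1.16 (SE 0.28, limma adjusted p = 0.042), although the lowest IgG array, experiment 2, did not detect this probe. ILMN_1235000 measured 8.81, 9.31 and 9.54 with AUF1 and 7.77, 7.65, 8.28 and 8.63 with IgG, which gives 1.14 (SE 0.28, limma adjusted p = 0.043). By day 6 the AUF1 means of these 2 probes, 7.13 and 8.42, lay close to their IgG means of 6.95 and 8.33. Their input differences of 0.45 and 0.41 fell to as low as 0.38 and 0.31 without 1 input array, and their input arrays of days 0 and 6 overlapped.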

How the data were processed

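Per the file headers, the deposited values are non-normalized signal intensity and a detection p-value for 25697 probes on 44 arrays. GenomeStudio 1.6.0 was used, per the submitters' processing notes. Background subtraction is not stated in the labels or headers (lowest signal 32.4). Column names carry the kind and day, the letter E with a number (1 to 4) and a last number. The number after E was read as the experiment and the last as the array number, which the labels do not state. In all, 0 columns were left unused and 0 pairs of columns were identical. Log2 signals were quantile-normalized over the 14 AUF1, 15 IgG and 15 input arrays separately, and over all pulldown arrays together for AUF1 against IgG. Tests used limma 3.58.1 in R 4.3.3 (lmFit and eBayes over all days of the kinds compared) on probes detected on at least 3 arrays, with Benjamini-Hochberg adjustment over all of them and calls at an adjusted p under 0.05. All 305 members were tested in all 4 comparisons. The number of arrays limits the precision. The method was tested on simulated data. The simulated arrays were drawn independently of each other, so that test does not cover arrays that deviate together.

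The members and comparisons were chosen with earlier results of these data known. Named probes are, per comparison, up to 2 in each direction: for the members, those with the largest smaller-of-the-2 differences, and for each test, the members called with the largest difference. The planned rule named 8 per class and gene lists; the rest of the 8 are given as ranges and no list was used, because the files do not pair identifiers with genes. Experiment numbers were taken to pair arrays where every same-numbered pair of deviations from group means correlated above 0.1 over at least 3 pairs, which, of the 4 tests, held only for AUF1 against IgG on day 2 (r 0.17 to 0.56 over 3 pairs). Input experiment numbers repeat within a day and pair nothing. Alternatives were neqc background correction, median scaling, joint normalization, other thresholds and filters, trended robust moderation, only the 2 groups compared, the replicate block, leaving out dim arrays and leaving out each array.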

Additional observations from a re-analysis of the deposited data

Results flagged for a closer look

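Among 112 groups of 4 or 5 arrays of the 14 named probes, 6 held an array far from the others, and chance flags about 1 in 20 groups. ILMN_2980661 measured 11.81 on the day 0 input array of experiment 4, and the nearest other array measured 10.72. ILMN_2440997 measured 11.10 on the day 4 IgG array of experiment 4 (scale of IgG arrays alone), and the nearest other array measured 12.09. ILMN_3115472 measured 12.07 on the day 0 input array of experiment 4 (nearest 10.28), and ILMN_2768755 measured 6.38 on a day 6 input array of experiment 3 (nearest 6.93). ILMN_2977558 measured 10.92 on the day 0 AUF1 array of experiment 2 (nearest 10.51), and ILMN_1219656 measured 9.61 on the day 6 IgG array of experiment 3 (nearest 8.87).

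In 4 named probes every IgG array of day 6 lay on one side of the day 0 mean and every input array of day 6 on the other. The difference between the IgG and the input change was 3.63 in ILMN_2980661, 3.08 in ILMN_2756486, -2.45 in ILMN_1221750 and -2.90 in ILMN_2977558. These differences were not tested. Input arrays and pulldown arrays were normalized separately.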

How the results depend on the processing

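The number of members moved most with the threshold and the scaling. The AUF1-higher and AUF1-lower counts of 189 and 116 were 343 and 203 at a difference of at least 0.3, 89 and 58 at 0.5, and 4 and 2 at 1. They were 356 and 216 with neqc background correction, which held all of the 189 and 116, and 529 and 48 under median scaling, which shared 186 and 48. Median scaling moved the median AUF1 difference of the input-detected probes to 0.12 and the input difference to -0.11. Leaving out single arrays gave 168 to 270 and 102 to 147, and 22 of 27 alternatives stayed within 1.5 times for each class. The IgG difference had the sign of AUF1 in 221 to 268 of 305 members over 15 alternatives (reported: 245), 221 to 268 without single arrays and 240 under median scaling (173 AUF1-higher and 67 AUF1-lower probes, against 155 and 90 as reported). The count on the side of IgG opposite to the AUF1 change was 190 to 259 on day 2 (reported: 256) and 190 to 253 on day 4 (reported: 242). Leaving out single arrays gave 239 to 259 and 228 to 253. Under median scaling all 189 AUF1-higher probes but only 1 of the 116 AUF1-lower probes lay on that side on each of these days. As reported these were 153 and 103 on day 2 and 145 and 97 on day 4.

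The members called in the IgG test (8 by limma) were 4 with neqc, 0 under median scaling (10 at an unadjusted p under 0.05), 5 without a detection filter, 4 with only the 2 groups compared, and 2 to 5 without single arrays. The replicate block gave 12, on experiment numbers that did not pair these arrays. All probes called were 246 as reported, 16 under median scaling, 155 when detected on all arrays compared, 387 without dim arrays, 511 with the block and 150 to 248 without single arrays. For AUF1 day 4 against day 2, 0 members were called by limma under any of 14 alternatives, the replicate block included (11 at an unadjusted p under 0.05 as reported), and all probes called were 2 as reported and 0 to 9 otherwise.

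Members called for AUF1 against IgG on day 2 (7) were 75 under median scaling, 4 without a filter, 12 when detected on all arrays compared, 0 with only the 2 groups compared (100 at an unadjusted p under 0.05), 0 without arrays under 30% detected (64 unadjusted), 149 with the replicate block and 0 to 47 without single arrays. All probes called (302) were 1435, 186, 160, 15, 0, 3778 and 0 to 815 in that order. Under median scaling every call on day 2 was lower with AUF1 (0 of all probes were called higher), where 5 of the 7 reported members were higher. On day 4 members called (8) were 4 with neqc, 47 under median scaling, 2 without a filter, 17 when detected on all arrays compared, 2 with trended robust moderation, 0 with only the 2 groups compared (85 unadjusted), 0 without arrays under 30% detected (53 unadjusted), 124 with the replicate block and 0 to 12 without single arrays. All probes called (145) were 95, 1575, 68, 224, 55, 2, 13, 3532 and 0 to 351 in that order. Under median scaling 7 of all probes were called higher and 1568 lower on day 4. Only 1 of the 116 AUF1-lower probes then lay above IgG, where 5 of the 8 reported members were higher. On day 4 the same-numbered arrays did not pair by the rule (lowest r 0.019 over 3 pairs). Under median scaling, which moved the median of all probes tested to -0.48 on day 2 and -0.53 on day 4, 4 named differences passed below 0 and 3 of them stayed above that median: ILMN_1219656 to -0.32 and ILMN_2914295 to -0.49 on day 2, and ILMN_2717460 to -0.21 and ILMN_1235000 to -0.22 on day 4. Why the results differ between scalings was not tested beyond the signal levels given. Tests of 3 or 4 arrays a group and signals near background limit what could be detected.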
